A study of Homo sapiens with 6 samples.

Results

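PRMT5 is the main enzyme that places symmetric dimethyl marks on arginines of histones, of the Sm proteins of the spliceosome and of many other proteins. It works as an octamer with the WD-repeat protein WDR77 and takes up substrates through interchangeable adaptors: RIOK1, CLNS1A (also called pICln) and COPRS. Each transfer uses S-adenosylmethionine, which MAT2A makes with its regulatory subunit MAT2B, and releases S-adenosylhomocysteine, which AHCY clears. MTAP degrades methylthioadenosine, a by-product of polyamine synthesis that inhibits PRMT5, and loss of MTAP in tumours makes cells sensitive to lower PRMT5 activity. The group described here was chosen by gene name and holds 9 genes of the 28395 gene IDs counted: 5 of the PRMT5 complex (PRMT5, WDR77, RIOK1, CLNS1A and COPRS) and 4 of the methyl supply (MAT2A, MAT2B, AHCY and MTAP). All 9 passed the filter on low counts, in every group at 451 counts or more per library.

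RNA was sequenced from A375, an established human melanoma line. Cells were exposed for 72 h to 500 nM GSK3326595, labelled CTX, an inhibitor of PRMT5, to 1 µM palbociclib, labelled PD991, which blocks CDK4 and CDK6, or to 0.01% DMSO as vehicle, with 2 libraries per group. No genetic change was made and all groups share the line, so PRMT5 itself was inhibited as a protein and not removed as a transcript. The labels do not say whether the 2 libraries of a group are separate cultures, so every p-value reflects how far these libraries lie apart, and part or all of that may be technical.

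Library totals ranged from 16589153 to 20842099 counts, and counting error alone was between 1.11% and 4.71% of a member's count. Levels are in CPM, the count scaled to an effective library of 1000000 after TMM normalization, and a gene was called at a Benjamini-Hochberg adjusted p under 0.05 in edgeR's quasi-likelihood test over 16381 genes. The lineage gene SOX10 was between 122 and 237 CPM and MITF between 57.4 and 87.4 CPM over the 6 libraries. The pigment genes PMEL and MLANA stayed at or below 2.45 CPM, DCT at or below 0.466 CPM and TYR at or below 0.0583 CPM. The melanocyte label thus rests mainly on SOX10 and MITF and not on pigment enzymes. Of markers of other cells, KRT1 was at 0 in all 6 libraries, PTPRC at or below 0.117 CPM and CD3E and DSG3 at or below 0.0583 CPM. The summed level of the 6 blood and endothelial markers was 69.7 to 71.7 CPM with GSK3326595, 72.2 to 80.3 CPM with palbociclib and 89.5 to 96.4 CPM with DMSO, most of it CD68. For the 6 fibroblast markers the sums were 31.9 to 33.2, 15.4 to 19.0 and 16.1 to 17.9 CPM in the same order of groups. COL1A1 alone was at 28.4 and 26.3 CPM with GSK3326595, 6.65 and 5.96 with palbociclib, and 13.9 and 12.5 with DMSO. LUM was instead highest with palbociclib, at 7.16 and 6.92 CPM. For the 5 keratinocyte markers the sums were 21.9 to 30.8, 30.0 to 33.5 and 22.1 to 24.6 CPM, most of it KRT10. All 8 markers of cycling cells were lower with either inhibitor than with DMSO, and their summed level was 1256 to 1263 CPM with GSK3326595, 717 to 798 CPM with palbociclib and 2188 to 2492 CPM with DMSO. The part that these marker differences, or the share of cycling cells, have in the results that follow was not tested. In bulk RNA, fewer cells that express a gene and less of its RNA per cell cannot be told apart.

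With GSK3326595 against DMSO the enzyme and its obligate partner rose and the S-adenosylmethionine synthase fell: PRMT5 was 1.31-fold and WDR77 1.36-fold higher, and MAT2A was 24.6% lower. The other 6 genes were not called. With palbociclib against DMSO, PRMT5, RIOK1, MAT2B and MTAP were lower by between 17.9% and 19.8%, and AHCY was 29.7% higher. PRMT5 thus moved in opposite directions under the inhibitors, and set directly against palbociclib it was 1.61-fold higher with GSK3326595. Of all genes tested, 18.8% were called with GSK3326595 against DMSO (8.58% higher, 10.2% lower), 39.5% with palbociclib against DMSO (19.3% higher, 20.2% lower) and 34.8% with GSK3326595 against palbociclib (18.2% higher, 16.6% lower). Beside these shares, the members called were 3, 5 and 5 of 9. These counts were not tested against the shares, and with 9 genes nothing is read from them as particular to the members. Both comparisons with DMSO use the same DMSO libraries.

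**Figure D1:**
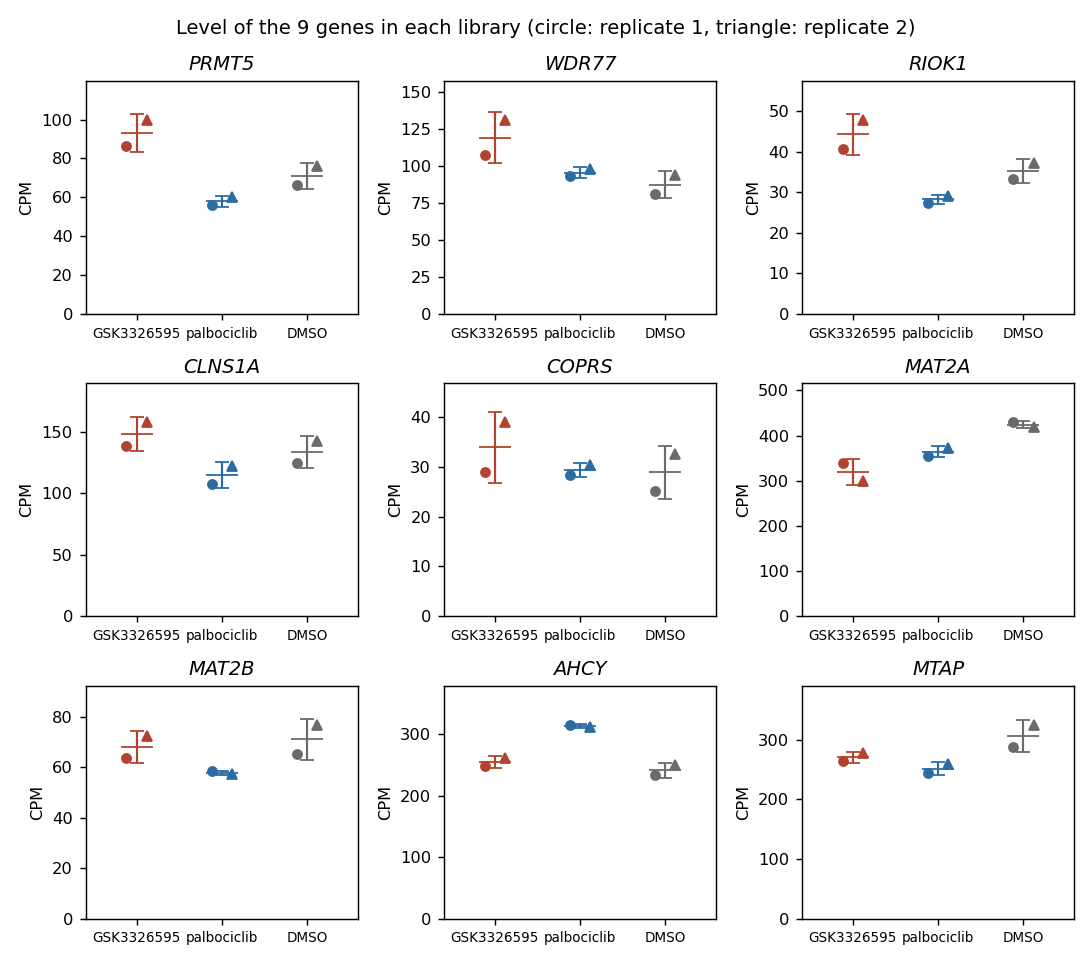
Level of each of the 9 genes in CPM (vertical axis, from 0) in the GSK3326595, palbociclib and DMSO libraries; points are libraries, horizontal marks are means and bars are SD (n = 2). PRMT5 lies at 86.2 and 99.9 CPM with GSK3326595, 55.9 and 60.0 CPM with palbociclib and 66.4 and 76.0 CPM with DMSO, while MAT2A is at its highest in the DMSO libraries and AHCY in the palbociclib libraries.

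PRMT5 (Gene ID 10419; GRCh38 chromosome 14, 22920529 to 22929376, minus strand) had 86.2 and 99.9 CPM with GSK3326595, 55.9 and 60.0 CPM with palbociclib, and 66.4 and 76.0 CPM with DMSO. The 3 groups did not overlap, with the palbociclib libraries lowest and the GSK3326595 libraries highest. The log2 fold change was 0.39 ± 0.10 (SE) with GSK3326595 against DMSO (edgeR adjusted p = 0.0204), and -0.30 ± 0.10 with palbociclib against DMSO (edgeR adjusted p = 0.0358). Both calls against DMSO were lost when certain single libraries were left out. With replicate number as a block both were kept (edgeR adjusted p = 1.99e-05 with GSK3326595 and 0.000516 with palbociclib). The labels do not say what a replicate number marks. The rise was 0.27, and no longer called, without GSK3326595 replicate 2 or DMSO replicate 1. It was 0.49 without GSK3326595 replicate 1 or DMSO replicate 2. In every group replicate 2 had more PRMT5 than replicate 1, and leaving out 1 library unbalances the replicate numbers between groups. The part of that imbalance in these changes was not tested. The fall was no longer called without DMSO replicate 2, where it was smaller (-0.18, edgeR adjusted p = 0.335). Its call was also lost at values nearer to the reported one: -0.24 without palbociclib replicate 1 (edgeR adjusted p = 0.222), -0.35 without palbociclib replicate 2 (0.0912), and -0.28 with DESeq2 (0.0839) or DESeq2 size factors in edgeR (0.0553). The direct difference between the inhibitors, 0.68 ± 0.10 with edgeR adjusted p = 0.000364, was called under all 11 alternatives tried, with log2 fold changes from 0.57 to 0.77. Such separation was common: the libraries of the groups compared did not overlap for 57.3% of all genes with GSK3326595 against DMSO (27.6% higher, 29.7% lower), for 72.5% with palbociclib against DMSO (35.1% higher, 37.4% lower) and for 67.4% between the inhibitors (35.7% higher, 31.8% lower). Of the 9 members, 3 were higher and 2 lower in this way, 1 higher and 6 lower, and 6 higher and 2 lower, in the same order of comparisons.

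The antisense gene PRMT5-AS1 overlaps 2879 bases of PRMT5 on the plus strand. It had 21 and 13 counts with GSK3326595, 14 and 6 with palbociclib, and 10 and 14 with DMSO, against at least 1101 counts of PRMT5 in any library. How the authors counted strand is not given in the sources used here, and reads from the overlapped stretch cannot be assigned between the pair. A further annotated non-coding gene inside PRMT5, LOC124903285, was not analysed here.

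WDR77 (Gene ID 79084; chromosome 1, 111439890 to 111449256, minus strand), the propeller protein that holds PRMT5 in its active octamer and binds substrate, had 107 and 131 CPM with GSK3326595, 93.0 and 98.0 CPM with palbociclib, and 80.8 and 94.0 CPM with DMSO. Both GSK3326595 libraries were above all others, and the palbociclib and DMSO libraries overlapped. The log2 fold change was 0.45 ± 0.11 (SE) with GSK3326595 against DMSO (edgeR adjusted p = 0.0142), and 0.13 ± 0.11 with palbociclib against DMSO (edgeR adjusted p = 0.372). The rise was no longer called without GSK3326595 replicate 2 (0.29, edgeR adjusted p = 0.0917) or DMSO replicate 1 (0.32, edgeR adjusted p = 0.151). Between the inhibitors it was 0.32 ± 0.11 (edgeR adjusted p = 0.0374). Without GSK3326595 replicate 2 it was smaller and not called (0.16, edgeR adjusted p = 0.289). The call was also lost, at a similar size, with DESeq2 (0.30, adjusted p = 0.0662), its size factors in edgeR (0.30, adjusted p = 0.0541), and without palbociclib replicate 1 (0.28, edgeR adjusted p = 0.205) or replicate 2 (0.35, edgeR adjusted p = 0.108).

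WDR77 has a head-to-head neighbour, ATP5PB, a subunit gene of the mitochondrial ATP synthase, which starts 207 bases away on the plus strand. ATP5PB had 202 and 230 CPM with GSK3326595, 163 and 165 CPM with palbociclib, and 152 and 178 CPM with DMSO. It too rose with GSK3326595, by a log2 of 0.39 ± 0.10 (SE, edgeR adjusted p = 0.0191), and was no longer called without GSK3326595 replicate 2 (0.29, edgeR adjusted p = 0.0998) or DMSO replicate 1 (0.25, edgeR adjusted p = 0.219). Its log2 fold change with palbociclib against DMSO was -0.01 ± 0.10 (edgeR adjusted p = 0.938), with a positive sign under DESeq2 or DESeq2 size factors. Because the pair shares its start region, the 300 bases around the WDR77 start, from 250 before it to 50 after, are shown here as RefSeq gives them for GRCh38.p14 (chr1:111449207-111449506, minus strand).

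WDR77 start region: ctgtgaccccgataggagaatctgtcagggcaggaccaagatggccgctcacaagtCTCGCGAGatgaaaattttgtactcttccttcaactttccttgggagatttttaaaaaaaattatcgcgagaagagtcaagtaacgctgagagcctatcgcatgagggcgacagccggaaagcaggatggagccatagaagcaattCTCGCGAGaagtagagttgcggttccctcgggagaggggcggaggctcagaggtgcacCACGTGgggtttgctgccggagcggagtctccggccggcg

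Capitals mark the matches to the motifs searched, on either strand: CACGTG (the E-box bound by MYC), CCAAT (the box bound by NF-Y), TTTGAA (the CHR element of cell cycle genes), CCGGAAG (an ETS site), TTTCCCGC and TTTGGCGC (E2F sites), TATAAA and the palindrome CTCGCGAG. The WDR77 window holds CTCGCGAG from position -194 and again from position -48, where -1 is the last base before the start, a motif found in 1.02% of the 35116 human start windows of the same length, and CACGTG from position 11 after the start, found in 7.26% of them. No matches overlapped each other. The motifs were picked with the members' sequences in view, and a match is a description of letters and not of a bound factor.

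RIOK1 (Gene ID 83732; chromosome 6, 7389808 to 7418037, plus strand), an atypical kinase that brings nucleolin and ribosomal substrates to PRMT5, had 40.6 and 47.8 CPM with GSK3326595, 27.4 and 29.02 CPM with palbociclib, and 33.1 and 37.3 CPM with DMSO. As for PRMT5, the palbociclib libraries were lowest, the GSK3326595 libraries highest and the groups apart. The log2 fold change was 0.33 ± 0.11 (SE) with GSK3326595 against DMSO, which was not called (edgeR adjusted p = 0.061). With replicate number as a block it was called (edgeR adjusted p = 0.00234), and without GSK3326595 replicate 1 it was 0.44. With palbociclib against DMSO it was -0.32 ± 0.11 (edgeR adjusted p = 0.0419). Without DMSO replicate 2 it was smaller and not called (-0.21, edgeR adjusted p = 0.291). The call was also lost, at about the same size, with DESeq2 (-0.30, adjusted p = 0.104), DESeq2 size factors in edgeR (-0.30, adjusted p = 0.0594) and no filter on low counts (-0.32, edgeR adjusted p = 0.0541). It was -0.28 without palbociclib replicate 1 (edgeR adjusted p = 0.206) and -0.36 without palbociclib replicate 2 (edgeR adjusted p = 0.109). Between the inhibitors RIOK1 was 1.57-fold higher with GSK3326595 (log2 fold change 0.65 ± 0.11, edgeR adjusted p = 0.00106), a call kept under all 11 alternatives.

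Over the 6 libraries RIOK1 had the profile nearest to that of PRMT5 among the 13183 genes that averaged 2 CPM or more. Likeness was taken as the root mean square difference of log2 CPM profiles, each centred on its own mean, and it was 0.027 for RIOK1 against a median of 0.346 over those genes. The next nearest were SNRPC, which encodes a U1 snRNP protein (0.027), DDX18, an RNA helicase of ribosome assembly (0.036), PNO1, a small-subunit ribosome assembly factor (0.036), and UAP1, an enzyme of hexosamine synthesis (0.042). RIOK1 (0.0268) and SNRPC (0.0271) were almost level. RIOK1 had between 540 and 821 counts per library, and the measure makes no allowance for counting error. The order among the nearest genes is therefore not settled. Of the other members, CLNS1A stood at rank 416, WDR77 at rank 1271, MAT2B at 1842, COPRS at 1940, MTAP at 3734, AHCY at 8651 and MAT2A at 8729. Scaled per kilobase of exon, the RIOK1 level was between 0.439 and 0.464 of the PRMT5 level in all 6 libraries.

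**Figure D2:**
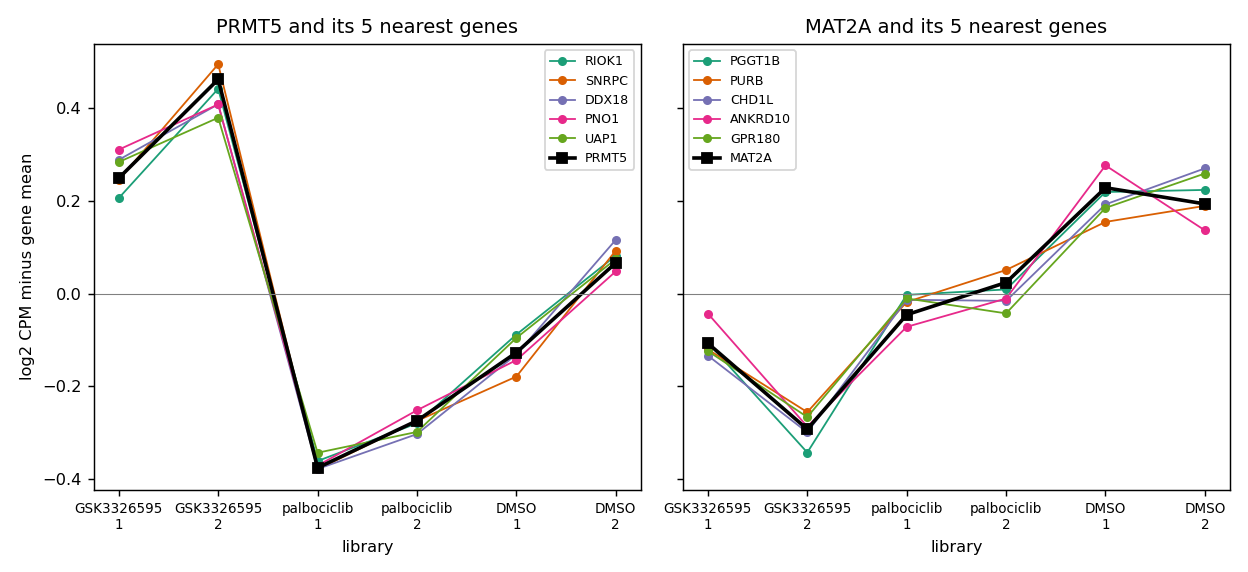
Centred log2 CPM (vertical axis) in the 6 libraries (horizontal axis) of PRMT5 and of MAT2A, each with the 5 genes whose profile was nearest; lines join the libraries of a gene and carry no order. RIOK1 follows PRMT5 with a root mean square difference of 0.027, while MAT2A is highest in the DMSO libraries and lowest with GSK3326595.

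The start regions of PRMT5 (chr14:22929327-22929626, minus strand) and RIOK1 (chr6:7389558-7389857, plus strand) are set side by side because the levels of the pair went together. Each reaches into a neighbour that did not pass the filter. PRMT5-DT, a non-coding gene on the plus strand, starts 232 bases from PRMT5 and had at most 11 counts in any library. CAGE1 lies 65 bases from RIOK1 and had at most 7 counts.

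PRMT5 start region: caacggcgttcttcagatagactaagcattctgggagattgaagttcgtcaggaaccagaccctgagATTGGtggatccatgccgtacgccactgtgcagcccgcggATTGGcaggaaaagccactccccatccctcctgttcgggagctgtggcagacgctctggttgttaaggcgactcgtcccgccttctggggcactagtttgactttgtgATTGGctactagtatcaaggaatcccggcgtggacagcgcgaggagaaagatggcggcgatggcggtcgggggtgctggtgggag

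RIOK1 start region: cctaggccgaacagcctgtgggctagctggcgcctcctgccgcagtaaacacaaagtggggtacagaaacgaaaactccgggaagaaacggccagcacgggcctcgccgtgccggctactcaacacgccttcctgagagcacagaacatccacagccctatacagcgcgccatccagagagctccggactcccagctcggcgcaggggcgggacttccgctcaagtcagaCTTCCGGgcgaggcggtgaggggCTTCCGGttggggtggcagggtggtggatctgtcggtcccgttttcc

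The PRMT5 window holds 3 CCAAT boxes, all read as ATTGG on the printed strand, from positions -183, -143 and -35. A CCAAT box is in 34.6% of all start windows. RIOK1 has none of them in its window and instead holds CCGGAAG 2 times, from positions -20 and 4, a motif of 10.3% of start windows. Of the letters searched, the pair has no motif in common within these 300 bases, and sequence further out was not examined.

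CLNS1A (Gene ID 1207; chromosome 11, 77614530 to 77637794), the chaperone that presents Sm proteins to PRMT5, had 139 and 158 CPM with GSK3326595, 108 and 122 CPM with palbociclib, and 124 and 143 CPM with DMSO. The GSK3326595 and DMSO libraries overlapped and the palbociclib libraries were below both. It was not called against DMSO, with log2 changes of 0.15 ± 0.10 (SE, edgeR adjusted p = 0.34) with GSK3326595 and -0.22 ± 0.10 (edgeR adjusted p = 0.112) with palbociclib. With replicate number as a block the change with palbociclib was called (edgeR adjusted p = 0.00502). Between the inhibitors CLNS1A was higher with GSK3326595, by a log2 of 0.37 ± 0.10 (edgeR adjusted p = 0.0157), which was 0.27 and not called without GSK3326595 replicate 2 (0.0853) or without palbociclib replicate 1 (0.179).

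COPRS (Gene ID 55352; chromosome 17, 31851871 to 31859244), the adaptor that directs PRMT5 to histone H4 tails, was the least counted member. It had 28.8 and 38.9 CPM with GSK3326595, 28.3 and 30.3 CPM with palbociclib, and 25.2 and 32.6 CPM with DMSO, so all 3 groups overlapped. Its log2 fold changes were 0.23 ± 0.15 (SE) with GSK3326595 and 0.02 ± 0.15 with palbociclib against DMSO, and 0.21 ± 0.15 between the inhibitors. None of them was called by edgeR (adjusted p = 0.329, 0.934 and 0.316), and without GSK3326595 replicate 1 the first and the last were (0.0463 and 0.0447).

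Taking the 5 genes of the complex as a list, 2 rose and 3 were not called with GSK3326595 against DMSO, with a median log2 fold change of 0.33 beside -0.0011 over all genes tested. Palbociclib against DMSO gave 2 that fell and 3 that were not called, and the median was -0.22 beside -0.018 over all genes. Between the inhibitors 4 were higher with GSK3326595 and 1 was not called, and the median was 0.37 beside 0.033. Of all genes tested, 8.58% rose with GSK3326595, 20.2% fell with palbociclib and 18.2% were higher with GSK3326595 than with palbociclib. The ratio of WDR77 to PRMT5, each per kilobase of exon, was 1.26 and 1.33 with GSK3326595, 1.69 and 1.66 with palbociclib, and 1.23 and 1.26 with DMSO. That ratio was therefore higher in both palbociclib libraries than in any other. No test of it was run. In every group the library titled replicate 2 had more CPM than replicate 1 for each of the 5 genes, 15 of 15 pairs, against 24337 of 49143 pairs over all genes tested. Its part in the results was not tested beyond the fit with replicate number as a term given at the end.

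**Figure D3:**
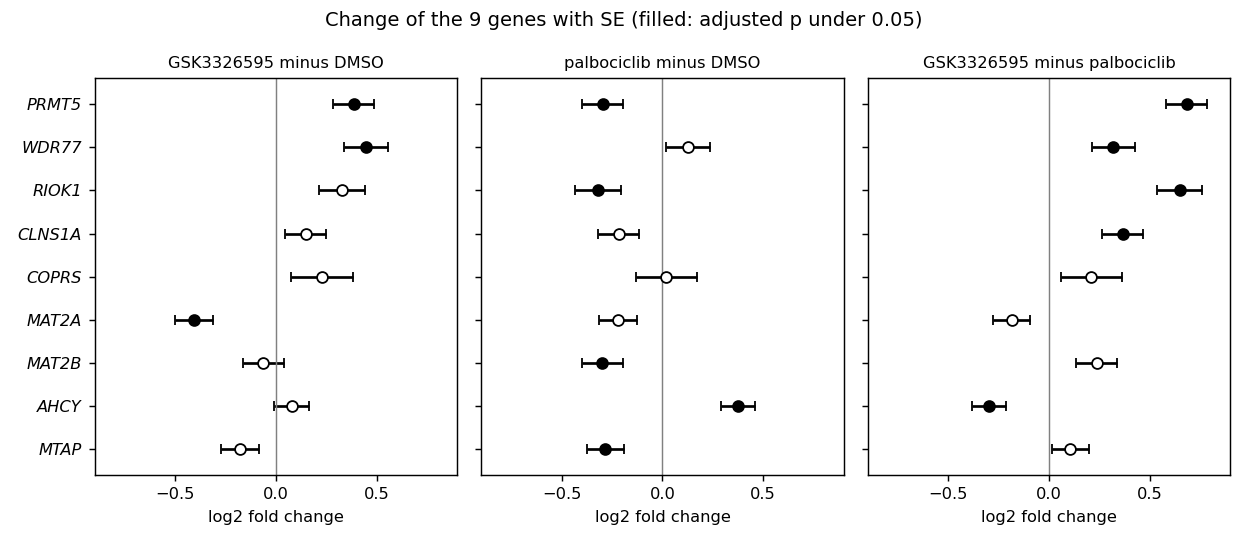
Log2 fold change (horizontal axis) with SE bars of the 9 genes in the 3 comparisons, from edgeR's quasi-likelihood fit; filled points have an adjusted p under 0.05. The PRMT5 point lies at 0.39 with GSK3326595 minus DMSO, -0.30 with palbociclib minus DMSO and 0.68 with GSK3326595 minus palbociclib, and the MAT2A point at -0.41, -0.22 and -0.19.

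MAT2A (Gene ID 4144; chromosome 2, 85539168 to 85545281, plus strand) encodes the catalytic subunit that makes S-adenosylmethionine in cells outside the liver. It had 340 and 299 CPM with GSK3326595, 355 and 373 CPM with palbociclib, and 429 and 419 CPM with DMSO. Every treated library was below both DMSO libraries, and the GSK3326595 libraries were the lowest. The log2 fold change was -0.41 ± 0.09 (SE) with GSK3326595 against DMSO (edgeR adjusted p = 0.0113), lost only without GSK3326595 replicate 2 (0.065, at a log2 change of -0.32) among the 11 alternatives. With palbociclib against DMSO it was -0.22 ± 0.09 (edgeR adjusted p = 0.0802), and between the inhibitors -0.19 ± 0.09 (edgeR adjusted p = 0.146), neither called. Both were called with replicate number as a block (edgeR adjusted p = 0.00695 and 0.0234). MAT2A and PRMT5 thus differed in opposite directions from DMSO in the same GSK3326595 libraries.

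The last 562 bases of MAT2A overlap GGCX, the vitamin K-dependent carboxylase gene, which runs the other way. GGCX had 30.5 and 26.0 CPM with GSK3326595, 61.2 and 56.2 CPM with palbociclib, and 52.0 and 43.6 CPM with DMSO. GGCX fell with GSK3326595 as well, by a log2 of -0.76 ± 0.12 (SE, edgeR adjusted p = 0.00118). The mean MAT2A level with GSK3326595 was below that with DMSO by 104 CPM, and the mean GGCX level was 28.3 CPM with GSK3326595 and 47.8 CPM with DMSO. How reads of the shared stretch were assigned was not tested. PARTICL, a non-coding gene that starts upstream of MAT2A on the other strand, had 4.43 and 4.14 CPM with GSK3326595, 4.06 and 4.04 CPM with palbociclib, and 3.12 and 3.28 CPM with DMSO, and was not called by edgeR in any comparison (adjusted p from 0.209 to 0.802). Counts per gene do not separate spliced MAT2A mRNA from transcripts that keep an intron, the form through which the gene is known to be controlled.

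The MAT2A start region (chr2:85538918-85539217, plus strand) is shown because this gene had the largest fall among the members with GSK3326595.

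MAT2A start region: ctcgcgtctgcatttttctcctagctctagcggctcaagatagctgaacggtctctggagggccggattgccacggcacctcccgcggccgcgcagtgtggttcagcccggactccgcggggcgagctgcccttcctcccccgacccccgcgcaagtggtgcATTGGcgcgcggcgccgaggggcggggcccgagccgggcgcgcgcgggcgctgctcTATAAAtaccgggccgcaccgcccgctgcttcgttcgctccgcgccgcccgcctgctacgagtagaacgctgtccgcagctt

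It holds TATAAA from position -32, a motif of 11.5% of start windows, and 1 CCAAT box, read as ATTGG, from position -88. The genes nearest to MAT2A in profile, by the same measure, were PGGT1B, which encodes a subunit of a prenyltransferase (0.030), PURB, a single-strand nucleic acid binding protein gene (0.038), CHD1L, a chromatin remodeller gene (0.042), ANKRD10 (0.044) and GPR180 (0.046). No other member was among them, the closest being MTAP at rank 1380.

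MAT2B (Gene ID 27430; chromosome 5, 163503064 to 163519354), the regulatory partner of MAT2A, had 63.6 and 72.5 CPM with GSK3326595, 58.4 and 57.3 CPM with palbociclib, and 65.3 and 76.8 CPM with DMSO. The palbociclib libraries were below all others, and the GSK3326595 and DMSO libraries overlapped. It was called lower with palbociclib against DMSO (log2 fold change -0.30 ± 0.10, SE, edgeR adjusted p = 0.0366). Without DMSO replicate 2 it was smaller and not called (-0.15, edgeR adjusted p = 0.392). The call was also lost, at about the same size, with DESeq2 (-0.28, adjusted p = 0.0858) or its size factors in edgeR (-0.28, adjusted p = 0.0558), and without palbociclib replicate 1 (-0.31, edgeR adjusted p = 0.134) or replicate 2 (-0.28, edgeR adjusted p = 0.172). With GSK3326595 it was at -0.06 ± 0.10 against DMSO (edgeR adjusted p = 0.717) and 0.24 ± 0.10 against palbociclib (0.0968). The latter was called with replicate number as a block (edgeR adjusted p = 0.0091). The MAT2A to MAT2B ratio per kilobase of exon was 5.41 and 4.18 with GSK3326595, 6.16 and 6.58 with palbociclib, and 6.65 and 5.52 with DMSO.

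AHCY (Gene ID 191; chromosome 20, 34231981 to 34311836), the hydrolase that removes S-adenosylhomocysteine and so relieves product inhibition of methyltransferases, had 248 and 262 CPM with GSK3326595, 316 and 311 CPM with palbociclib, and 233 and 250.03 CPM with DMSO. Both palbociclib libraries were above all others, and the GSK3326595 and DMSO libraries overlapped. AHCY rose with palbociclib against DMSO, by a log2 of 0.37 ± 0.09 (SE, edgeR adjusted p = 0.00445), lost only without DMSO replicate 1 (0.0527) among the 11 alternatives. It was lower with GSK3326595 than with palbociclib (-0.30 ± 0.09, edgeR adjusted p = 0.018), a call lost at a similar size without GSK3326595 replicate 1 (-0.27, edgeR adjusted p = 0.0863), palbociclib replicate 1 (-0.29, edgeR adjusted p = 0.125) or palbociclib replicate 2 (-0.31, edgeR adjusted p = 0.101). With GSK3326595 against DMSO it was not called (0.08 ± 0.09, edgeR adjusted p = 0.576). The opposite-strand gene ASIP, which encodes the agouti signalling protein, overlaps the annotated AHCY locus and was at or below 2.56 CPM in every library. ASIP was called higher with GSK3326595 against DMSO (1.09 ± 0.35, edgeR adjusted p = 0.0495) but lost with DESeq2 (0.123) and in 6 other alternatives. Per kilobase of exon, AHCY stood at 1.11 and 1.33 times the MAT2A level with GSK3326595, 1.35 and 1.27 times with palbociclib, and 0.824 and 0.905 times with DMSO. Over principal transcripts in place of joined exons these ratios were 0.959 and 1.15 with GSK3326595, 1.17 and 1.10 with palbociclib, and 0.715 and 0.785 with DMSO. On either length both DMSO libraries had less AHCY than MAT2A and the lowest ratios, while GSK3326595 replicate 1 had more AHCY than MAT2A on joined exons only.

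MTAP (Gene ID 4507; chromosome 9, 21802636 to 21941115), the methylthioadenosine phosphorylase gene that is often lost together with CDKN2A in melanoma, was expressed in these cells. It had 264 and 277 CPM with GSK3326595, 243 and 260 CPM with palbociclib, and 288 and 325 CPM with DMSO. All treated libraries were below both DMSO libraries. The log2 fold change was -0.28 ± 0.09 (SE) with palbociclib against DMSO (edgeR adjusted p = 0.028), and it was smaller and not called without DMSO replicate 2 (-0.17, edgeR adjusted p = 0.291). It was also not called at -0.24 without palbociclib replicate 1 (edgeR adjusted p = 0.221) or at -0.33 without palbociclib replicate 2 (edgeR adjusted p = 0.0918). With GSK3326595 it was -0.18 ± 0.09 against DMSO (edgeR adjusted p = 0.203) and 0.11 ± 0.09 against palbociclib (0.408), neither called. The former was called with replicate number as a block (edgeR adjusted p = 0.0347).

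Among the 4 methyl supply genes, 1 fell and 3 were not called with GSK3326595 against DMSO, with a median log2 fold change of -0.12. For palbociclib against DMSO 1 rose, 2 fell and 1 was not called, and the median was -0.25. Between the inhibitors 1 was lower with GSK3326595 and 3 were not called, and the median was -0.04. Over all genes tested the medians were -0.0011, -0.018 and 0.033 in that order. Of all genes, 8.58% rose and 10.2% fell in the first comparison, 19.3% and 20.2% in the second, and 18.2% and 16.6% between the inhibitors. Levels between genes were compared per kilobase of exon, from the joined exons of GENCODE 29. In DMSO, MAT2A led with 113 ± 1.93 CPM per kilobase (SD, n = 2), before AHCY with 97.7 ± 4.81, CLNS1A with 42.5 ± 4.12, WDR77 with 33.9 ± 3.62, PRMT5 with 27.2 ± 2.57, MTAP with 23.7 ± 2.04, COPRS with 22.5 ± 4.12, MAT2B with 18.7 ± 2.16 and RIOK1 with 12.5 ± 1.04. The COPRS libraries overlapped in this order with those of PRMT5, MTAP and MAT2B. On joined exons AHCY led with either inhibitor, at 103 ± 3.92 with GSK3326595 and 127 ± 1.27 CPM per kilobase with palbociclib. The order below MAT2A depends on the length used. Over principal transcripts alone, the mean DMSO level came to between 44.7 and 140 CPM per kilobase for CLNS1A and between 50.04 and 62.4 for MTAP, depending on the transcript, and to 113 for AHCY. On that length MAT2B came to 33.8 and COPRS to 29.9, both above PRMT5 at 28.1, while WDR77 stayed at 33.9 and RIOK1 at 12.5.

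Beyond the members, 24 further genes of the methionine cycle, methionine salvage and polyamine synthesis were followed, of which 21 passed the filter. BHMT, BHMT2 and MAT1A, which are liver genes, had at most 3 counts in any library. With GSK3326595 against DMSO 5 rose, 1 fell and 15 were not called, with a median log2 fold change of 0.10. For palbociclib against DMSO 4 rose, 5 fell and 12 were not called, and the median was -0.03. Between the inhibitors 7 were higher and 4 lower with GSK3326595 and 10 were not called, and the median was 0.13. Over all genes tested the medians were -0.0011, -0.018 and 0.033 in that order. Of all genes, 8.58% rose and 10.2% fell in the first comparison, 19.3% and 20.2% in the second, and 18.2% and 16.6% between the inhibitors.

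METTL16, the RNA methyltransferase that controls the splicing and stability of MAT2A mRNA, had 90.4 and 95.4 CPM with GSK3326595, 53.2 and 53.8 CPM with palbociclib, and 64.4 and 73.4 CPM with DMSO. Its groups did not overlap and stood in the order seen for PRMT5. It rose with GSK3326595 against DMSO (log2 fold change 0.43 ± 0.09, SE, edgeR adjusted p = 0.00676), no longer called without DMSO replicate 1 (0.108). It was also higher with GSK3326595 than with palbociclib (0.80 ± 0.09, edgeR adjusted p = 7.21e-05). METTL16 fell with palbociclib against DMSO (-0.37 ± 0.09, edgeR adjusted p = 0.00739), which was smaller and not called without DMSO replicate 2 (-0.25, edgeR adjusted p = 0.134). The call was lost at about the same size without palbociclib replicate 1 (-0.35, edgeR adjusted p = 0.0654) or replicate 2 (-0.37, edgeR adjusted p = 0.0565). That last comparison of METTL16 was outside the naming rule and is given after its values were seen.

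NNMT, which spends S-adenosylmethionine on nicotinamide, had 45.0 and 52.4 CPM with GSK3326595, 21.0 and 20.2 CPM with palbociclib, and 20.9 and 23.3 CPM with DMSO. It was 2.20-fold higher with GSK3326595 than with DMSO (edgeR adjusted p = 6.65e-05) and 2.36-fold higher than with palbociclib (edgeR adjusted p = 1.82e-05), and both calls were kept under all 11 alternatives. SAT1, the acetyltransferase that starts polyamine breakdown, had 14.0 and 13.6 CPM with GSK3326595, 36.2 and 35.6 CPM with palbociclib, and 8.25 and 9.68 CPM with DMSO. It rose with either inhibitor, by a log2 of 0.62 ± 0.13 with GSK3326595 (SE, edgeR adjusted p = 0.0063) and 2.00 ± 0.12 with palbociclib (edgeR adjusted p = 2.78e-07), against DMSO. The smaller of these calls was lost without DMSO replicate 1 (0.065). SAT1 was lower with GSK3326595 than with palbociclib (-1.38 ± 0.12, edgeR adjusted p = 1.08e-05). Palbociclib libraries also differed from DMSO in AHCYL2 and SMS. AHCYL2, an AHCY-like gene, was higher (0.75 ± 0.11, edgeR adjusted p = 0.000266). SMS, which makes spermine, was lower (-0.67 ± 0.10, edgeR adjusted p = 0.000306). The other AHCY-like gene, AHCYL1, was lower with palbociclib (-0.39 ± 0.08, edgeR adjusted p = 0.00269). AHCYL1 was outside the naming rule and is given after its values were seen.

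PRMT5 methylates Sm proteins before the SMN complex loads them on small nuclear RNAs. A list of 20 genes held Sm genes, genes of the SMN complex and the Sm-like genes LSM4, LSM10 and LSM11. All were above the filter. With GSK3326595 against DMSO 2 rose, 1 fell and 17 were not called, with a median log2 fold change of 0.18. Of all genes tested, 8.58% rose and 10.2% fell, with a median of -0.0011. The Sm gene SNRPD2 had 304 and 339 CPM with GSK3326595, against 246 and 258 CPM with DMSO, and rose by a log2 of 0.35 ± 0.09 (SE, edgeR adjusted p = 0.0202). SMN2 rose (0.62 ± 0.16, edgeR adjusted p = 0.0205) and GEMIN4, an SMN complex gene, fell (-0.26 ± 0.08, edgeR adjusted p = 0.0441). SMN2 and SMN1 are near-identical copies, so their split of reads is uncertain. The SNRPD2 call was lost without GSK3326595 replicate 2 (0.111), DMSO replicate 1 (0.163) or DMSO replicate 2 (0.0654), and the SMN2 call without GSK3326595 replicate 1 (0.0765) or DMSO replicate 1 (0.13). The GEMIN4 call was lost without any of the 6 libraries (adjusted p from 0.0622 to 0.211), with DESeq2 (0.0897), DESeq2 size factors in edgeR (0.054) and no filter (0.0787).

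Of these 20 genes, 7 fell with palbociclib against DMSO and 13 were not called, and the median was -0.19. Over all genes tested 20.2% fell and 19.3% rose, and the median was -0.018. SNRPB, which encodes SmB and is a direct PRMT5 substrate, had 245 and 254 CPM with palbociclib, against 334 and 395 CPM with DMSO (log2 fold change -0.55 ± 0.10, SE, edgeR adjusted p = 0.00121). SNRPD1, which encodes the substrate SmD1, fell by 0.71 and SMN1 by 0.84 on the log2 scale (edgeR adjusted p = 0.000891 and 0.000765). Between the inhibitors 10 were higher with GSK3326595 and 10 were not called, and the median was 0.31. Over all genes tested 18.2% were higher and 16.6% lower, and the median was 0.033. Among the 20 genes, SNRPB (0.73 ± 0.10, edgeR adjusted p = 0.000233), SMN1 (0.91 ± 0.15, edgeR adjusted p = 0.00063) and GEMIN2 (0.91 ± 0.18, edgeR adjusted p = 0.00208) had the smallest p.

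**Figure D4:**
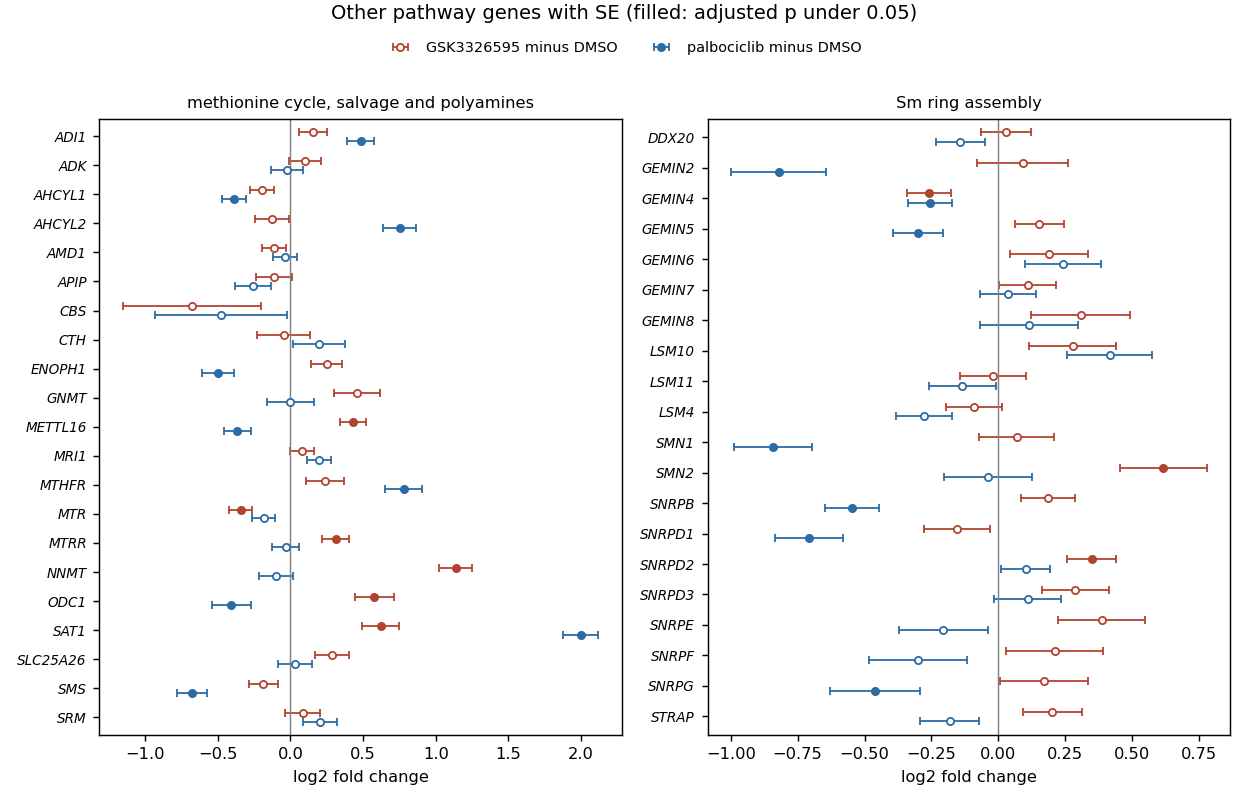
Log2 fold change (horizontal axis) with SE bars of the other genes of the methionine cycle, salvage and polyamines (left) and of Sm ring assembly (right), with GSK3326595 minus DMSO and palbociclib minus DMSO; filled points have an edgeR adjusted p under 0.05. NNMT stands apart at 1.14 with GSK3326595 and SAT1 at 2.00 with palbociclib, and SMN1 lies at -0.84 with palbociclib.

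**Figure D5:**
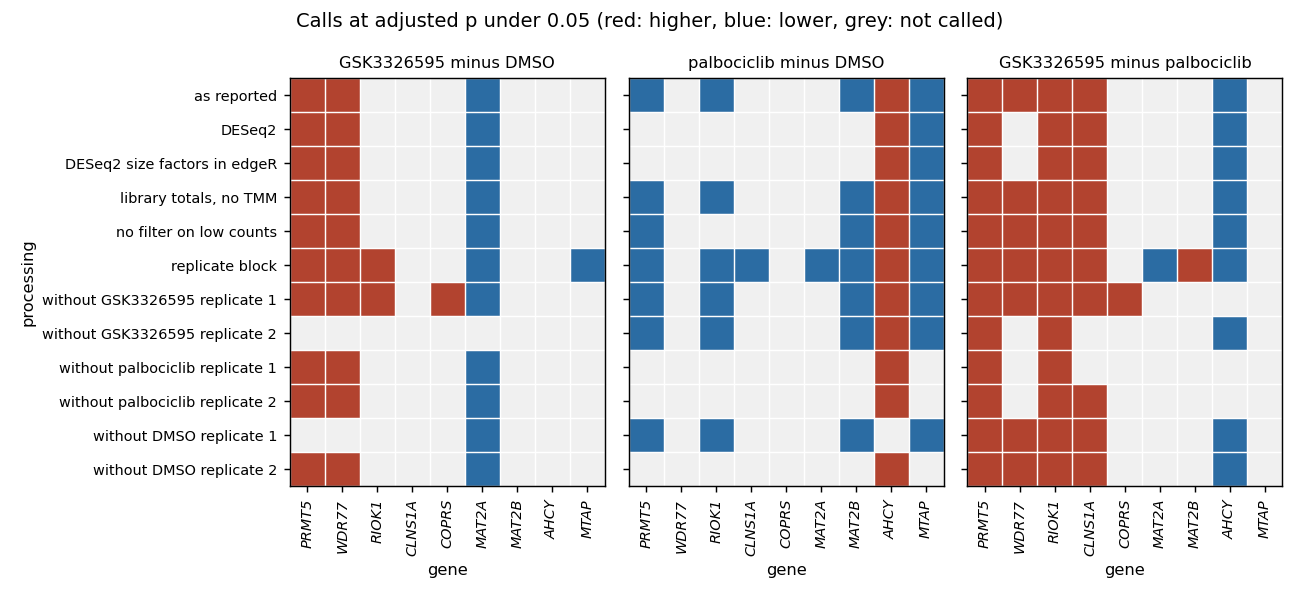
Calls of the 9 genes (columns) in the 3 comparisons under the processing reported and each of 11 alternatives (rows); red is higher, blue lower and grey not called at an adjusted p under 0.05. PRMT5 and RIOK1 are called in every row with GSK3326595 minus palbociclib, while none of the 9 genes is called with GSK3326595 minus DMSO when GSK3326595 replicate 2 is left out.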

How the data were processed

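The authors deposited raw read counts per NCBI Gene ID, 1 file for each of 6 libraries, with no normalization. Per the submitters' processing notes, the tools named are CASAVA 1.8.2, cutadapt 1.7, HISAT2, featureCounts 1.6.2 and limma, on hg38. The sources used here do not give the annotation, the strand setting or how multiply mapped reads were treated. Per the labels' protocols, total RNA was depleted of ribosomal RNA before TruSeq library preparation.

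Gene IDs were named from RefSeq on GRCh38, the same build: 27745 of 28395 matched, and the 650 without a symbol, 0.233% to 0.508% of a library's counts, stayed in the totals and tests. edgeR 4.0.16 in R 4.3.3 was used: filterByExpr with a minimum count of 10, TMM, and a quasi-likelihood model with a coefficient per group over all 6 libraries (3 residual degrees of freedom). The model moderates the spread of each gene with that of other genes, so SE and p-values do not rest on that gene's libraries alone. P-values were two-sided and Benjamini-Hochberg adjusted over 16381 genes. SE is the absolute log2 fold change over the square root of F. The steps were tested on simulated data. Changes put in at a log2 size of 1 were called in 100% of cases, and those at 0.5 in 57%. The simulation gave every gene 1 common spread and changed 100 genes of each size, in the GSK3326595 group only. These rates may differ in the real libraries, where spread varies by gene and many more genes were called. The largest member change against DMSO was 0.45, of WDR77 with GSK3326595. A gene not called may therefore still have changed by such a size. Exon lengths came from GENCODE 29. Replicates differed by more than counting noise (chi-square per degree of freedom from 5.48 to 10.7), so none was merged.

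Alternatives were DESeq2 1.42.0, its size factors in edgeR, library totals, no filter, replicate number as a block, and leaving out each library in turn. Named besides the 9 members were, per pathway list and comparison, the 3 called genes with the smallest p, the 5 genes nearest in profile to PRMT5 and to MAT2A, and neighbouring genes. Members and lists were chosen with earlier results of these data known.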

Additional observations from a re-analysis of the deposited data

How the results depend on the processing

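With replicate number as a block, genes called with GSK3326595 against DMSO were 5769, against 3081 without it, members called were 5 and pathway genes 20, against 3 and 9. Pathway genes called with palbociclib against DMSO were 25, against 16. Every member called without the block stayed called with it in the same comparison. With GSK3326595 against DMSO these were PRMT5 (edgeR adjusted p = 1.99e-05), WDR77 (1.17e-06) and MAT2A (7.5e-06). The block also called RIOK1 (edgeR adjusted p = 0.00234) and MTAP (0.0347) with GSK3326595, and CLNS1A (0.00502) and MAT2A (0.00695) with palbociclib. Between the inhibitors it also called MAT2A (0.0234) and MAT2B (0.0091). Same-numbered libraries deviated together, with correlations across genes of 0.341 to 0.502 between groups, but the labels do not say that a number marks a shared day or culture. DESeq2, and its size factors in edgeR, called 2 members with palbociclib against DMSO, AHCY and MTAP, in place of 5. ATP5PB with palbociclib was at 0.0073 with either, and from -0.13 to 0.13 leaving out libraries.

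Leaving out each library in turn gave, with GSK3326595 against DMSO, 1765 to 3230 genes, 0 to 5 members and 2 to 10 pathway genes. The 0, without GSK3326595 replicate 2, is edgeR's, where 3 members had an unadjusted p under 0.05. With palbociclib against DMSO it gave 4007 to 7259 genes, 1 to 5 members and 10 to 18 pathway genes, and between the inhibitors 3312 to 5542 genes, 2 to 5 members and 13 to 21 pathway genes. A lone library left in a group was assumed to vary like the others. Replicate numbers were then also unbalanced between groups, and replicate 2 had more CPM than replicate 1 for each gene of the complex. The sign turned for values not called over all libraries, those of COPRS, from -0.0059 to 0.43 with GSK3326595, -0.16 to 0.24 with palbociclib and -0.025 to 0.40 between the inhibitors, and of MAT2B with GSK3326595, from -0.20 to 0.060. Over 297 refitted values of the members, 247 kept direction and side of the threshold.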
